A study of Mus musculus with 16 samples.

Results

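The genes described here are 8 coregulators of nuclear receptors, Ncoa1, Ncoa2, Ncoa3, Ncor1, Nrip1, Med1, Crebbp and Ep300, measured in the adipose tissue of female mice. They were chosen by name, and a probe was assigned to a gene when its transcript accession in the scanner files matched a RefSeq transcript of that gene. This gave 19 probes for the 8 genes, of 41174 probes and 19096 named genes on the array, and all 19 probes passed the filter on dim probes. The samples were white adipose tissue (WAT) of mice whose glucocorticoid receptor gene was knocked out in adipose tissue (AdipoKO_WAT), WAT of control mice (CTL_WAT), brown adipose tissue (BAT) of such knockouts (AdipoKO_BAT) and BAT of controls (CTL_BAT), with 4 one-colour arrays in each group. The series' design text calls the controls wild-type. The labels give neither the strain, the age, the driver of the knockout nor any treatment. They call the samples biological replicates, and say nothing on whether WAT and BAT came from the same animals.

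Nuclear receptors such as the glucocorticoid receptor switch genes on or off by recruiting coregulator proteins. The p160 coactivators Ncoa1 (SRC-1), Ncoa2 (TIF2 or GRIP1) and Ncoa3 (SRC-3) dock on the hormone-bound receptor and bring in the histone acetyltransferases Crebbp (CBP) and Ep300 (p300), while Med1 links the receptor to the Mediator complex and RNA polymerase II. Ncor1 is the scaffold of a histone deacetylase complex that silences receptor targets, and Nrip1 (RIP140) is a ligand-dependent corepressor. In mouse fat, Nrip1 is known for restraining oxidative and thermogenic genes, Ncoa1 and Ncoa2 for opposite roles in energy expenditure and fat storage, and Ncor1 for damping the adipogenic receptor Pparg.

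Levels are log2 of the processed signal relative to its 75th percentile on each array, so they can be compared between samples for 1 probe but not between genes. Differences are log2 ± SE from limma, knockout minus control or BAT minus WAT, and a call means an adjusted p under 0.05 (Benjamini-Hochberg over 25107 rows, that is 16677 named genes and 8430 unnamed probes). The arrays of WAT knockouts 1 and 2 were almost identical, with an SD of their log2 difference over 7026 bright probes of 0.0855, against at least 0.208 in the other 119 pairs. They were averaged to 1 sample, WAT knockout 1-2, which leaves n = 3 in that group. The 75th percentile of the signal was 298 to 1035 and 66.7% to 83.6% of probes were well above background. The deleted gene, Nr3c1, stood at 1.64, 1.36 and 1.58 in WAT knockouts 1-2, 3 and 4 and at 1.93, 2.56, 2.0 and 2.25 in WAT controls. It stood at 1.30, 1.30, 1.45 and 1.76 in BAT knockouts and at 2.33, 2.40, 2.53 and 2.70 in BAT controls, and in both depots the knockouts were all lower than the controls (-0.66 ± 0.19 in WAT, adjusted p = 0.210, and -1.03 ± 0.18 in BAT, adjusted p = 0.0814). Whether the Nr3c1 probe lies within the deleted stretch is not given in the sources used here. The brown adipocyte marker list (7 of 7 genes tested) had levels of 2.17 to 2.73 in BAT knockouts and 2.11 to 2.77 in BAT controls, against -4.67 to -2.48 in WAT knockouts and -3.05 to -2.24 in WAT controls, where a level is the median log2 deviation of its genes from their means. Of its genes, Zic1 was well above background on 1 of 4 arrays in WAT knockouts and 1 of 4 in WAT controls, and Elovl3 on 1 of 4 in WAT knockouts and all 4 in WAT controls. In tissue RNA, fewer cells of a type and less RNA per cell cannot be told apart.

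The median of all rows was 0.24 higher in WAT knockouts than in WAT controls and 0.10 higher in BAT knockouts than in BAT controls. It was 0.11 higher in BAT than in WAT among controls and differed by -0.09 between BAT and WAT among knockouts. Differences are therefore also given relative to these medians where it matters.

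Nrip1 was the only gene of the 8 that passed the test in any of the 5 comparisons, and it did so between the depots in both genotypes. It was 2.67-fold lower in BAT than in WAT of controls and 2.08-fold lower in BAT than in WAT of knockouts. The array held 1 probe for Nrip1, so no other probe could be set beside this result. The knockout itself changed no member at the threshold: 0 of 8 were called in WAT, where 0.0597% of all rows were called, and 0 of 8 in BAT, where 0.0159% were. At an unadjusted p under 0.05 in limma the counts were 0 of 8 in WAT (17.9% of all rows) and 2 of 8 in BAT (13.1% of all rows). Those 2 in BAT were Ncor1 and Ncoa2. In the genotype by depot interaction 0 of 8 were called and 1 of 8 had an unadjusted p under 0.05 (10.4% of all rows). Between depots the unadjusted counts were 3 of 8 in knockouts (40.3% of all rows) and 1 of 8 in controls (42.5%).

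**Figure D1:**
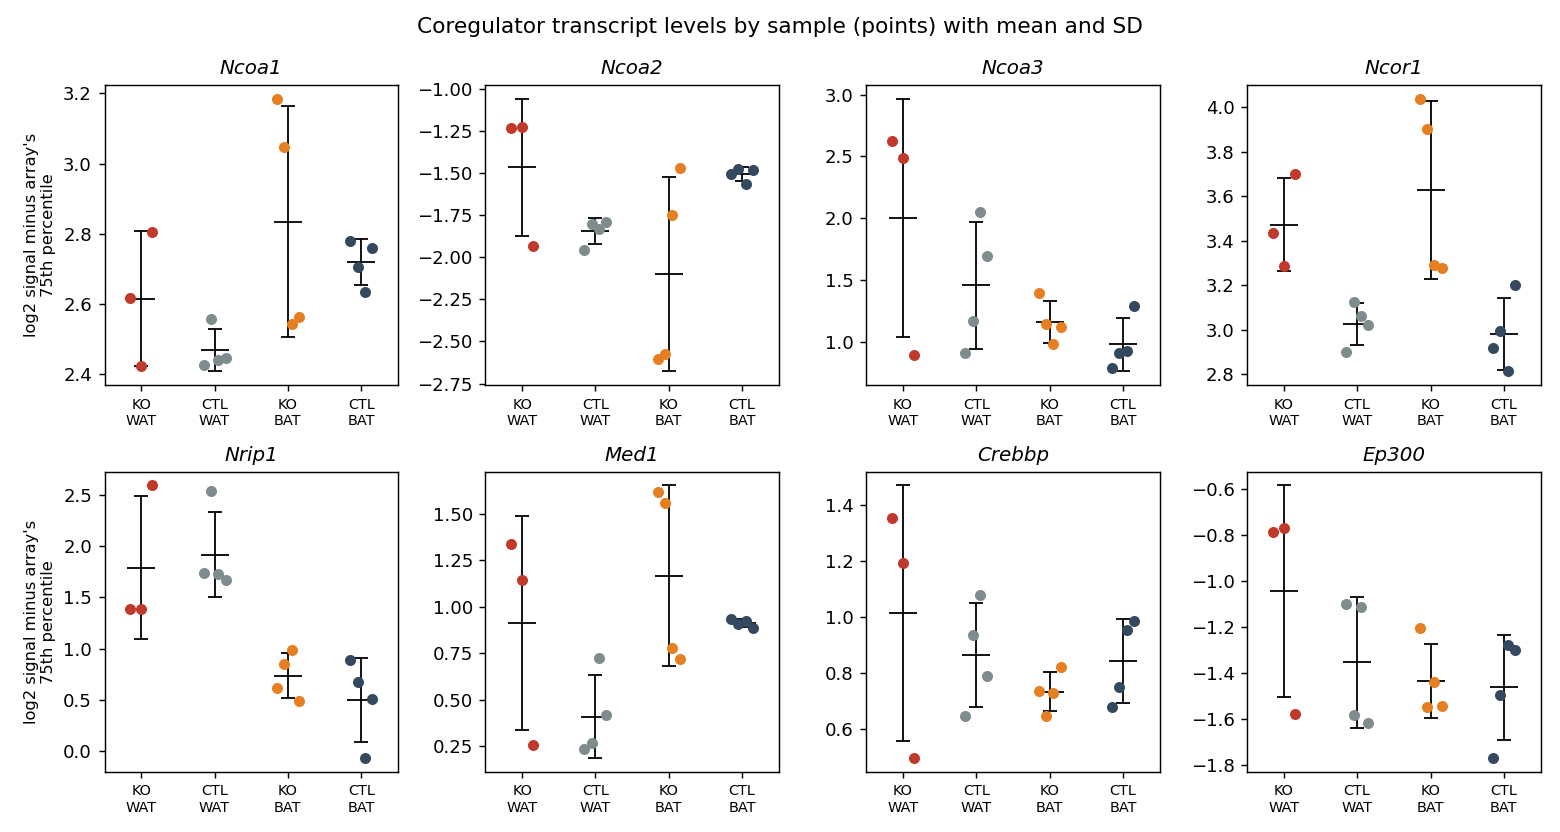
Levels of the 8 genes (log2 signal relative to the 75th percentile, 1 panel per gene with its own axis) in AdipoKO_WAT (n = 3), CTL_WAT, AdipoKO_BAT and CTL_BAT (n = 4 each). Points are samples, the horizontal mark is the mean and bars are the SD. In the Nrip1 panel all BAT samples lie below all WAT samples, and in the Ncor1 panel all knockouts lie above all controls of their depot.

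Nrip1, the corepressor, had levels of 0.62, 0.85, 0.98 and 0.49 in BAT knockouts 1 to 4, against 1.39, 1.39 and 2.60 in WAT knockouts 1-2, 3 and 4. In controls it had 0.89, 0.67, -0.07 and 0.51 in BAT samples 1 to 4, against 1.74, 2.54, 1.73 and 1.67 in WAT samples 1 to 4. The highest BAT sample of either genotype thus lay below the lowest WAT sample. The difference between depots was -1.06 ± 0.33 in knockouts (0.74 ± 0.22 in BAT, n = 4, and 1.79 ± 0.70 in WAT, n = 3, limma adjusted p = 0.0258). In controls it was -1.42 ± 0.30 (0.50 ± 0.41 in BAT and 1.92 ± 0.41 in WAT, SD, n = 4 each, limma adjusted p = 0.00264). Among all rows 30.6% were called between the depots in knockouts and 33.4% in controls, and 13.9% and 14.3% were called lower in BAT. Relative to the median of all rows the differences were -0.97 and -1.53. On the 4 slides taken separately the BAT minus WAT difference was -0.77, -0.49, -1.61 and -0.95 in knockouts and -1.07, -2.61, -0.84 and -1.16 in controls. In knockouts, slides 2 and 4 held the near-identical arrays of WAT knockouts 2 and 1, so their values are not independent. The difference in controls passed in all 30 alternatives tried (-1.63 to -1.20). That in knockouts passed in 24 of 30 and was lost without WAT knockout 4 (-0.65, adjusted p = 0.0868), without BAT knockout 1 (-1.02, adjusted p = 0.0506), without BAT knockout 4 (-0.97, adjusted p = 0.0636) and without BAT knockouts 1 and 2 together (-1.06, adjusted p = 0.0823). It was also lost with the array median for scaling (-0.91, adjusted p = 0.0939) and in a fit of the 2 groups alone (-1.06, adjusted p = 0.0925).

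Within WAT, Nrip1 varied between samples of the same group. It was highest in WAT knockout 4 and WAT control 2, the samples with the highest adipocyte marker levels of their groups (0.81 and 0.49). It was lower in WAT knockouts 1-2 and 3, at adipocyte marker levels of -2.21 and -1.24. The adipocyte list, with 9 of 9 genes tested, lay at 0.24 to 0.55 in BAT knockouts and 0.10 to 0.36 in BAT controls. In WAT it lay at -2.21 to 0.81 in knockouts and -0.32 to 0.49 in controls. Every gene of that list was well above background on all arrays, and its part in the Nrip1 values was not tested. Other marker lists also differed with the depot or within WAT. Macrophage markers (7 of 7 genes tested) lay at -1.04 to -0.73 in BAT knockouts against 0.13 to 1.57 in WAT knockouts, and at -1.23 to -0.76 in BAT controls against 1.03 to 1.74 in WAT controls. Skeletal muscle markers (9 of 9) lay at 2.49 to 5.29 in BAT knockouts against -4.43 to -2.82 in WAT knockouts, and at -1.20 to 3.02 in BAT controls against -3.50 to -2.65 in WAT controls. Of that list, Ckm was well above background on 1 of 4 arrays in WAT knockouts and 3 of 4 in WAT controls, and Actn3 on 3 of 4 in WAT knockouts. Intestinal epithelium markers (9 of 9) were high in WAT controls 1 and 4 (7.03 and 5.42), against -2.06 and 0.75 in WAT controls 2 and 3. Cdx1, Cdx2, Cdh17 and Reg3b of that list were well above background on 3 of 4 WAT control arrays. B cell markers were at 5.05 and 4.73 in WAT knockouts 1-2 and 3, where Nrip1 was lower, and at -1.34 in WAT knockout 4, where it was higher. In WAT controls 1 to 4 they were at 0.37, -0.24, 3.62 and 3.0, beside Nrip1 levels of 1.74, 2.54, 1.73 and 1.67. In BAT, where Nrip1 was lowest, they lay at -2.26 to -1.18 in knockouts and -2.09 to -1.53 in controls. The part of these lists was not tested either. Between genotypes Nrip1 differed by -0.13 ± 0.33 in WAT (95% interval -0.83 to 0.58, adjusted p = 0.808) and by 0.23 ± 0.30 in BAT (-0.42 to 0.89, adjusted p = 0.823). The genotype by depot interaction was 0.36 ± 0.45 (adjusted p = 0.802).

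The promoter windows of Nrip1 are shown because it is the called gene, and those of Ncor1 because its groups stood apart in both depots. They come from RefSeq (GRCm38.p6, 250 bases before to 50 after a transcript start, 2 starts for each gene, all on the minus strand), and are written 5′ to 3′. Capitals mark the hexamer AGAACA or its reverse complement TGTTCT, an arm of the glucocorticoid response element.
Nrip1, chr16:76373778-76374077: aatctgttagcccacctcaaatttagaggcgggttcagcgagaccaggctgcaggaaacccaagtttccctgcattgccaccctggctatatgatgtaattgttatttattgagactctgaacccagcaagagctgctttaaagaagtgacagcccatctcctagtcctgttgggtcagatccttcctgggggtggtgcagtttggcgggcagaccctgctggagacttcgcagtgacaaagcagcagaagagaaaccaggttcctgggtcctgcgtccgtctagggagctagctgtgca
Nrip1, chr16:76373000-76373299: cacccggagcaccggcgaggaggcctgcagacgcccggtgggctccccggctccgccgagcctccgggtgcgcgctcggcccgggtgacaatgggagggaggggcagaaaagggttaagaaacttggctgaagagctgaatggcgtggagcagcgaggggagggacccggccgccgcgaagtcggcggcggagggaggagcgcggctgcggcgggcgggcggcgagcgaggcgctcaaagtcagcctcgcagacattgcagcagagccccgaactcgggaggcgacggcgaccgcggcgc
Ncor1, chr11:62457283-62457582: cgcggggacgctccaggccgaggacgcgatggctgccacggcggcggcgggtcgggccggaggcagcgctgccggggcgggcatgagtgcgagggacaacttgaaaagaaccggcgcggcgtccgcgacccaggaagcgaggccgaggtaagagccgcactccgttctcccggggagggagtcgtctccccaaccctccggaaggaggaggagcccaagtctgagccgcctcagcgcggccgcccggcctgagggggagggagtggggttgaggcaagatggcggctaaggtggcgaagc
Ncor1, chr11:62438466-62438765: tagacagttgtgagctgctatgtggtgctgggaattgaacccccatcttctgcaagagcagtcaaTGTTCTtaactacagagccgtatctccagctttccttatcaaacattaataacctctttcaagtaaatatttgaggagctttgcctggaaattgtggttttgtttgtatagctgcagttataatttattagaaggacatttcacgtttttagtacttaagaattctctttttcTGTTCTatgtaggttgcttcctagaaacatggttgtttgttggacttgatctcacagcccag
The 3 motifs searched on both strands were the palindromic response element (AGAACA and TGTTCT with 3 bases of any kind between them), AGAACA alone (which it contains) and AGGTCA (the hexamer of many other nuclear receptors). Of 32851 windows of all genes, 0.00913% held the first, 19.0% the second and 16.3% the third. Neither Nrip1 window held any of the 3. In Ncor1 the window at the upper coordinates held none and the other held AGAACA on the opposite strand at 2 places. Windows were present for 6 of the 8 genes, and among the other 4 (Ncoa1, Med1, Crebbp and Ep300) that of Ncoa1 held AGAACA at 1 place. These are letters in a short window and say nothing of binding.

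Ncor1, the deacetylase complex scaffold, was the only member whose knockouts and controls did not overlap in either depot. In WAT its levels were 3.44, 3.28 and 3.70 in knockouts 1-2, 3 and 4, against 2.90, 3.12, 3.06 and 3.02 in controls 1 to 4. In BAT they were 4.04, 3.90, 3.29 and 3.28 in knockouts 1 to 4, against 2.92, 2.99, 2.81 and 3.20 in controls 1 to 4. All knockouts were higher, but BAT knockouts 3 and 4 exceeded the highest BAT control by little. The differences were 0.45 ± 0.21 in WAT (3.47 ± 0.21, n = 3, and 3.03 ± 0.09, n = 4, limma adjusted p = 0.281) and 0.65 ± 0.20 in BAT (3.63 ± 0.40 and 2.98 ± 0.16, n = 4 each, limma adjusted p = 0.214). Neither passed. Relative to the median of all rows they were 0.20 and 0.55. Groups that do not overlap were found for 7.7% of all rows in WAT (6.47% with knockouts higher) and 18% in BAT (9.35% with knockouts higher), and 1 of the 8 members showed it in each depot. Within slides 1 to 4 the difference was 0.38, 0.35, 0.64 and 0.38 in WAT and 1.04, 1.09, 0.37 and 0.08 in BAT. The WAT values of slides 2 and 4 rest on the near-identical arrays of WAT knockouts 2 and 1. Without BAT knockouts 1 and 2 the BAT difference was 0.30 ± 0.18, in a fit that called 0 of 25107 rows. On those 2 arrays the upper-quartile signal was lowest (298 and 320.2, against 497 and 486 for BAT knockouts 3 and 4 and 501 to 561 for BAT controls). Their endothelial marker levels were 1.18 and 0.83 (8 of 8 genes tested), against 0.18 and 0.30 in BAT knockouts 3 and 4 and 0.03 to 0.24 in BAT controls. The part of either in the Ncor1 values was not tested. Between depots Ncor1 differed by 0.15 ± 0.21 in knockouts (adjusted p = 0.648) and by -0.05 ± 0.20 in controls (adjusted p = 0.889).

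Ncor1 was also measured by 3 other probes. A_52_P561927 behaved like the one above: all knockouts lay above all controls in WAT (2.0 to 2.25 against 1.52 to 1.83, difference 0.38 ± 0.17, adjusted p = 0.275 over all probes) and in BAT (1.91 to 2.45 against 1.71 to 1.88, difference 0.37 ± 0.16, adjusted p = 0.305). For A_52_P487598 the differences were 0.34 ± 0.19 in WAT and 0.31 ± 0.17 in BAT, with overlapping groups. The fourth, A_52_P244895, is assigned to another transcript of the gene, NM_177229, where the other 3 carry NM_011308. It differed by 0.05 ± 0.29 in WAT and by -0.31 ± 0.27 in BAT, where knockouts 1 and 2 were low on it (-2.65 and -2.56) and high on the other 3. Whether the probes report different isoforms was not tested.

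**Figure D2:**
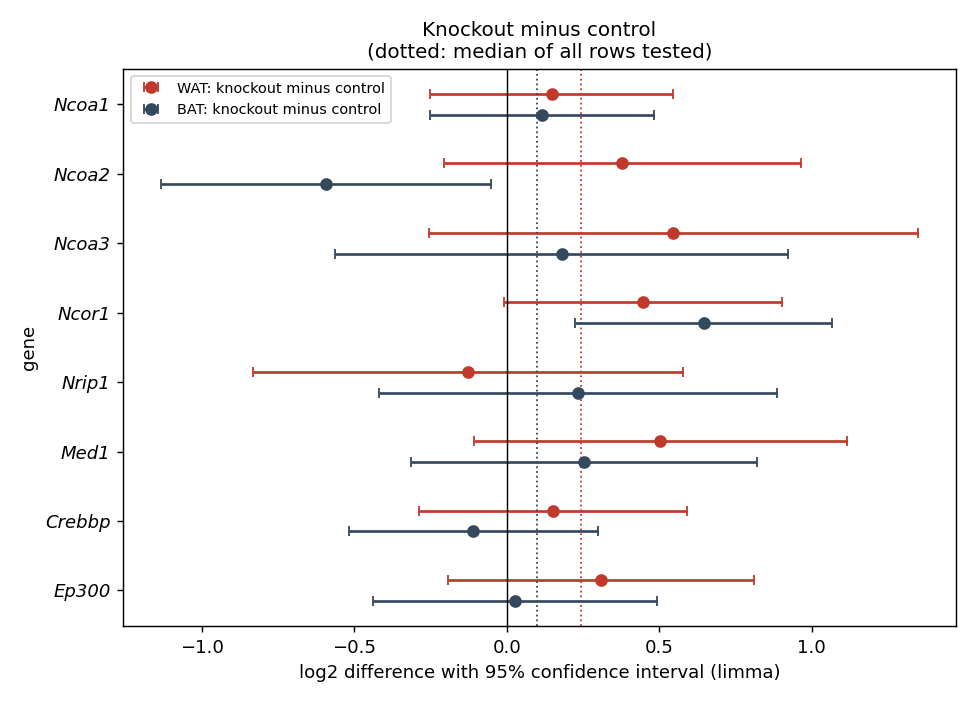
Knockout minus control log2 difference of the 8 genes with its 95% confidence interval, for WAT (3 knockout and 4 control samples) and BAT (4 and 4). Dotted lines mark the median of all 25107 rows, 0.24 in WAT and 0.10 in BAT. The Ncor1 point lies to the right of 0 in both depots (0.45 and 0.65), and the Ncoa2 points lie on opposite sides (0.38 and -0.59).

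Of the p160 coactivators, Ncoa2 stood at -2.61, -2.57, -1.75 and -1.47 in BAT knockouts 1 to 4, against -1.51, -1.48, -1.57 and -1.48 in BAT controls 1 to 4. BAT controls were tightly grouped, BAT knockouts 1 and 2 lay far below them, knockout 3 lay below them by less, and knockout 4 lay just above the highest of them. The difference was -0.59 ± 0.25 (-2.10 ± 0.58 and -1.51 ± 0.04, SD, n = 4 each, limma adjusted p = 0.340). It was -0.10 ± 0.21 without BAT knockouts 1 and 2, in a fit that called 0 of 25107 rows. In WAT it stood at -1.23, -1.23 and -1.93 in knockouts 1-2, 3 and 4, against -1.95, -1.80, -1.83 and -1.79 in controls 1 to 4, a difference of 0.38 ± 0.27 (limma adjusted p = 0.412). The genotype by depot interaction, -0.97 ± 0.37, was the largest of the 8 members and did not pass (adjusted p = 0.417; 1 row in all was called, 0.00398%). It passed in 1 alternative, without WAT knockout 4 (-1.21, adjusted p = 0.0373), where 4055 of 25107 rows passed.

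The 3 Ncoa2 probes disagreed in BAT. A_51_P478593 differed by 0.28 ± 0.23 and A_52_P21971 by -0.11 ± 0.20, so the low values of BAT knockouts 1 and 2 were seen on A_52_P335636 alone. In WAT the same 2 probes gave 0.96 ± 0.25 (adjusted p = 0.193 over all probes) and 0.69 ± 0.21 (adjusted p = 0.220). All knockouts lay above all controls on both, as they did for 6.47% of all rows. All 3 probes thus had a negative interaction (-0.68, -0.81 and -0.97), and none passed.

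Ncoa3 separated the WAT samples more than the genotypes. It had 2.63, 2.49 and 0.89 in WAT knockouts 1-2, 3 and 4, against 0.91, 1.17, 2.05 and 1.70 in WAT controls 1 to 4. In BAT it had 1.39, 1.14, 0.98 and 1.12 in knockouts 1 to 4, against 0.79, 0.91, 0.93 and 1.29 in controls 1 to 4. The high WAT samples were those with high B cell marker levels (8 of 8 genes tested): 5.05, 4.73 and -1.34 in knockouts 1-2, 3 and 4, and 0.37, -0.24, 3.62 and 3.0 in controls 1 to 4. T and NK cell markers (10 of 10) ran alike, at 3.81, 3.53 and -0.96 in those knockouts and -0.01, -0.65, 2.78 and 2.26 in those controls. Among BAT samples B cell markers lay at -2.26 to -1.18 in knockouts and -2.09 to -1.53 in controls. Some of these genes were near background there. Pax5 was well above it on 1 of 4 arrays in each BAT group, and Blk on 1 of 4 in BAT knockouts and 2 of 4 in BAT controls. Cr2 was so on 2 of 4 in BAT knockouts and all 4 in BAT controls. The part of lymphocyte content in the Ncoa3 values was not tested. The differences were 0.55 ± 0.37 in WAT (2.0 ± 0.97, n = 3, and 1.46 ± 0.51, n = 4, limma adjusted p = 0.392) and 0.18 ± 0.35 in BAT (adjusted p = 0.893). Leaving out WAT knockout 4 gave 1.10 in WAT (adjusted p = 0.00873), with 9235 of all rows called in that fit, and leaving out WAT knockouts 1-2 and 3 gave -0.57 (adjusted p = 0.512), where the lone knockout sample is assumed to vary like the other groups.

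Between depots Ncoa3 differed by -0.84 ± 0.37 in knockouts (limma adjusted p = 0.105) and by -0.48 ± 0.35 in controls (adjusted p = 0.327). The difference in knockouts was -1.40 without WAT knockout 4 (adjusted p = 0.00101, 11456 rows called) and 0.27 without WAT knockouts 1-2 and 3 (adjusted p = 0.775). It also passed with the mean of all probes of a gene (-0.83, adjusted p = 0.0432) and with 16 separate arrays (-1.0, adjusted p = 0.0335). Its other probes, A_51_P454207 and A_52_P477759, passed in knockouts when every probe was tested (-0.71, adjusted p = 0.0348, and -0.94, adjusted p = 0.0369), although WAT knockout 4 overlapped the BAT knockouts on both. Between genotypes in WAT they differed by 0.31 ± 0.23 and 0.76 ± 0.31, and neither passed. In BAT the means on A_51_P454207 were -2.95 in knockouts and -2.62 in controls, opposite in direction to the probe above. On A_52_P477759 they were -0.89 in knockouts and -1.04 in controls.

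Ncoa1 varied least, with a range of 0.76 over the 15 samples. It had 2.62, 2.42 and 2.81 in WAT knockouts 1-2, 3 and 4, against 2.43, 2.56, 2.44 and 2.45 in WAT controls 1 to 4. In BAT it had 3.19, 3.05, 2.54 and 2.56 in knockouts 1 to 4, against 2.78, 2.70, 2.63 and 2.76 in controls 1 to 4. BAT knockouts 1 and 2 were the highest samples and BAT knockouts 3 and 4 lay below all BAT controls. The differences were 0.15 ± 0.19 in WAT (95% interval -0.25 to 0.54, adjusted p = 0.618) and 0.12 ± 0.17 in BAT (-0.25 to 0.48, adjusted p = 0.854). All BAT controls lay above all WAT controls (0.25 ± 0.17, adjusted p = 0.298), a direction that flipped under quantile normalization (-0.08).

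**Figure D3:**
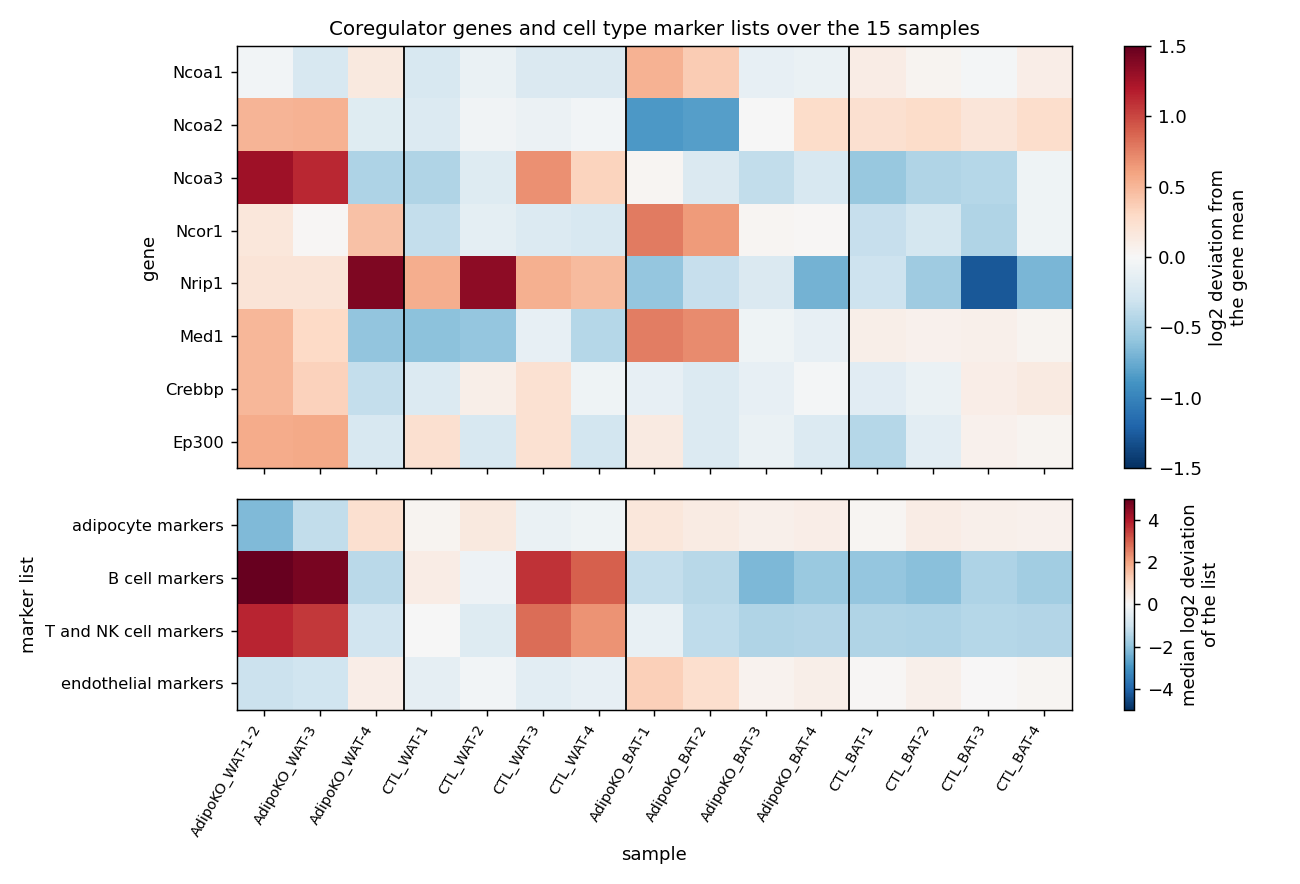
Deviation of each gene from its own mean over the 15 samples (top, log2) and the levels of 4 marker lists (bottom, median log2 deviation), with samples as columns in the order AdipoKO_WAT, CTL_WAT, AdipoKO_BAT and CTL_BAT. WAT knockouts 1-2 and 3 show high Ncoa3 (2.63 and 2.49 before centring) together with B cell marker levels of 5.05 and 4.73, and BAT knockouts 1 and 2 show low Ncoa2 (-2.61 and -2.57) with high Ncor1 and Med1.

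Med1, the receptor-binding Mediator subunit, followed a similar split in WAT. Its levels were 1.34, 1.14 and 0.26 in WAT knockouts 1-2, 3 and 4, against 0.23, 0.27, 0.72 and 0.42 in WAT controls 1 to 4 (difference 0.50 ± 0.29, limma adjusted p = 0.327). The difference was 0.83 without WAT knockout 4 (limma adjusted p = 0.0240), with 9235 of all rows called in that fit. In BAT they were 1.62, 1.56, 0.78 and 0.72 in knockouts 1 to 4, against 0.94, 0.91, 0.93 and 0.89 in controls 1 to 4. BAT knockouts 1 and 2 thus lay above all BAT controls and knockouts 3 and 4 below them. The mean difference was 0.25 ± 0.26 (limma adjusted p = 0.761). It was -0.17 ± 0.27 without BAT knockouts 1 and 2, in a fit that called 0 of 25107 rows. Probe A_52_P176300, assigned to the transcript NM_134027, gave another picture: 0.08, 0.13, 0.02 and 0.06 in BAT knockouts 1 to 4, against 0.29, 0.29, 0.39 and 0.37 in BAT controls 1 to 4. All BAT knockouts were below all BAT controls on it (-0.26 ± 0.18, adjusted p = 0.560 over all probes). In BAT the genotypes did not overlap, in either direction, for 18% of all rows. The third probe, A_52_P301166, differed by -0.08 ± 0.37 in BAT and by 0.49 ± 0.40 in WAT. All 3 Med1 probes were higher in every BAT control than in every WAT control (0.50, 0.37 and 0.51), none at an adjusted p under 0.05. Among all rows 24.8% were so, and probes of 1 gene on the same arrays are not independent.

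For the acetyltransferase genes Crebbp and Ep300 no difference between the genotypes passed. Crebbp had 1.35, 1.19 and 0.49 in WAT knockouts 1-2, 3 and 4, against 0.65, 0.94, 1.08 and 0.79 in WAT controls 1 to 4 (0.15 ± 0.21, 95% interval -0.29 to 0.59, adjusted p = 0.642). In BAT it had 0.73, 0.65, 0.73 and 0.82 in knockouts 1 to 4, against 0.68, 0.75, 0.95 and 0.99 in controls 1 to 4 (-0.11 ± 0.19, 95% interval -0.52 to 0.30, adjusted p = 0.879). In WAT the knockouts held both its highest and its lowest sample. Ep300 had -0.79, -0.77 and -1.58 in WAT knockouts 1-2, 3 and 4, against -1.10, -1.58, -1.11 and -1.62 in WAT controls 1 to 4 (0.31 ± 0.23, 95% interval -0.19 to 0.81, adjusted p = 0.432). In BAT it had -1.21, -1.55, -1.44 and -1.54 in knockouts 1 to 4, against -1.77, -1.50, -1.28 and -1.30 in controls 1 to 4 (0.03 ± 0.22, 95% interval -0.44 to 0.49, adjusted p = 0.980). Between depots in knockouts Crebbp differed by -0.28 ± 0.21 (limma adjusted p = 0.342) and Ep300 by -0.39 ± 0.23 (limma adjusted p = 0.241). Without WAT knockout 4, Ep300 passed in WAT (0.57, adjusted p = 0.0446), where 9235 of 25107 rows were called. In that fit both genes also passed between depots in knockouts (Crebbp -0.54, adjusted p = 0.0140, and Ep300 -0.65, adjusted p = 0.0192), where 11456 rows were called. The second Crebbp probe, A_52_P239850, differed by 0.63 ± 0.25 in WAT (95% interval 0.10 to 1.16, adjusted p = 0.258 over all probes) and -0.20 ± 0.23 in BAT. The second Ep300 probe, A_52_P179662, was well above background on 1 of 4 BAT knockout arrays and on all 4 arrays of each other group. It was lower in all BAT knockouts than in all BAT controls (-0.48 ± 0.27, adjusted p = 0.441 over all probes), so this difference rests on values near background. Groups that do not overlap, in either direction, made up 18% of all rows in BAT.

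**Figure D4:**
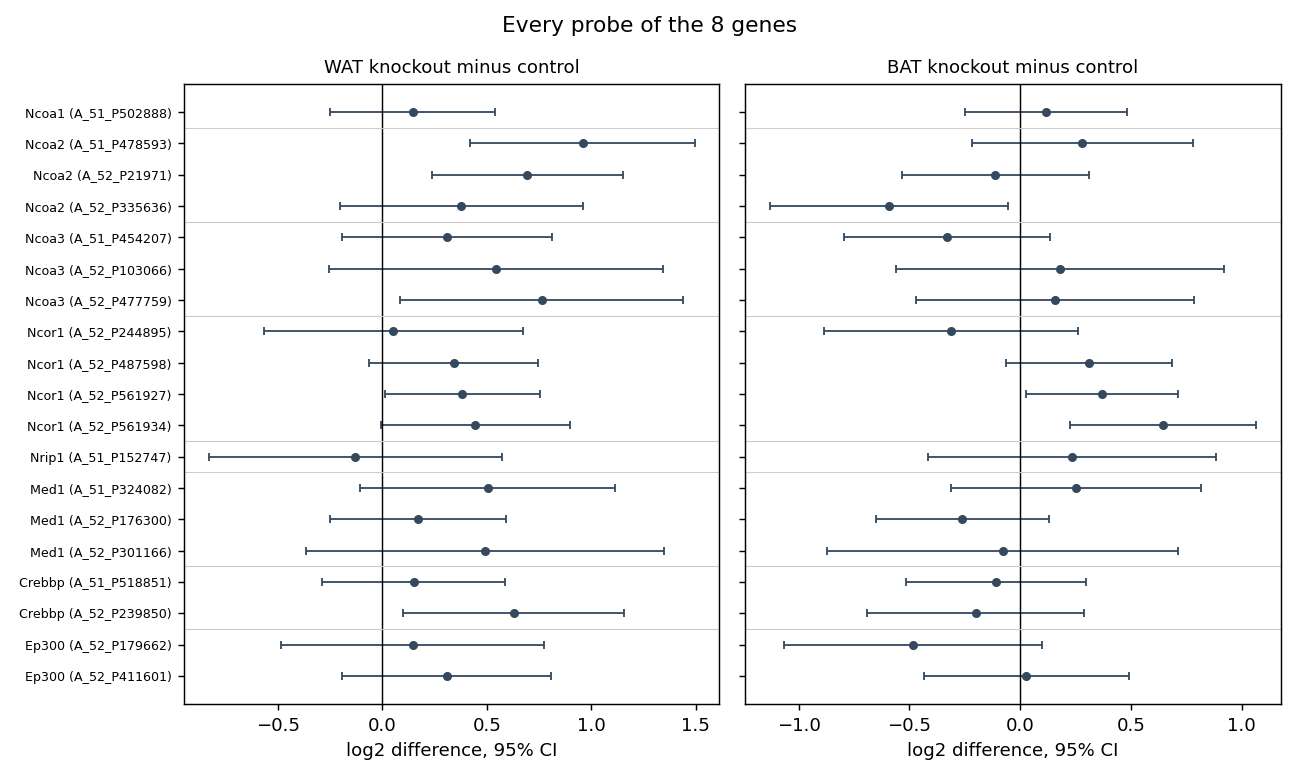
Knockout minus control log2 difference with its 95% confidence interval for each of the 19 probes, in WAT (left) and BAT (right), with grey lines between genes. In BAT the 3 Ncoa2 probes run between 0.28 and -0.59 and the 4 Ncor1 probes between 0.65 and -0.31, so the probes of these genes do not share 1 direction there. The probes of Ncoa3, Med1 and Ep300 also differ in direction in BAT.

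In the comparison of depots, 4 of the 8 members did not overlap between BAT and WAT controls: Ncoa1, Ncoa2 and Med1 lay higher in BAT and Nrip1 lower. That compares with 43.3% of all rows, 24.8% higher and 18.5% lower. In knockouts Nrip1 alone did not overlap, 1 of 8 against 25.5% of all rows and 10.7% in that direction. Ncoa2 was 0.34 ± 0.25 higher in BAT controls than in WAT controls (adjusted p = 0.347), while in knockouts the difference was -0.63 ± 0.27 (adjusted p = 0.0952). That in knockouts passed without WAT knockout 4 (-0.87, adjusted p = 0.0198, 11456 rows called), without BAT knockout 4 (-0.85, adjusted p = 0.0261), with the mean of all probes of a gene (-0.54, adjusted p = 0.0289) and with 16 separate arrays (-0.69, adjusted p = 0.0369). It was -0.14 without BAT knockouts 1 and 2 (adjusted p = 0.641). On the Ncoa2 probes A_51_P478593 and A_52_P21971 the means were -3.02 and -2.60 in BAT knockouts, against -2.55 and -2.09 in WAT knockouts. Med1 differed by 0.25 ± 0.29 in knockouts (limma adjusted p = 0.564) and 0.50 ± 0.26 in controls (limma adjusted p = 0.165). In a fit of the 2 control groups alone, Ncoa2 (0.34 ± 0.11, limma adjusted p = 0.0338) and Med1 (0.50 ± 0.14, limma adjusted p = 0.0186) passed. That fit called 10774 rows. The median difference of the 8 members between depots was -0.34 in knockouts (median of all rows -0.09) and -0.03 in controls (0.11). Each comparison of depots shares its samples with both comparisons of genotypes.

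**Figure D5:**
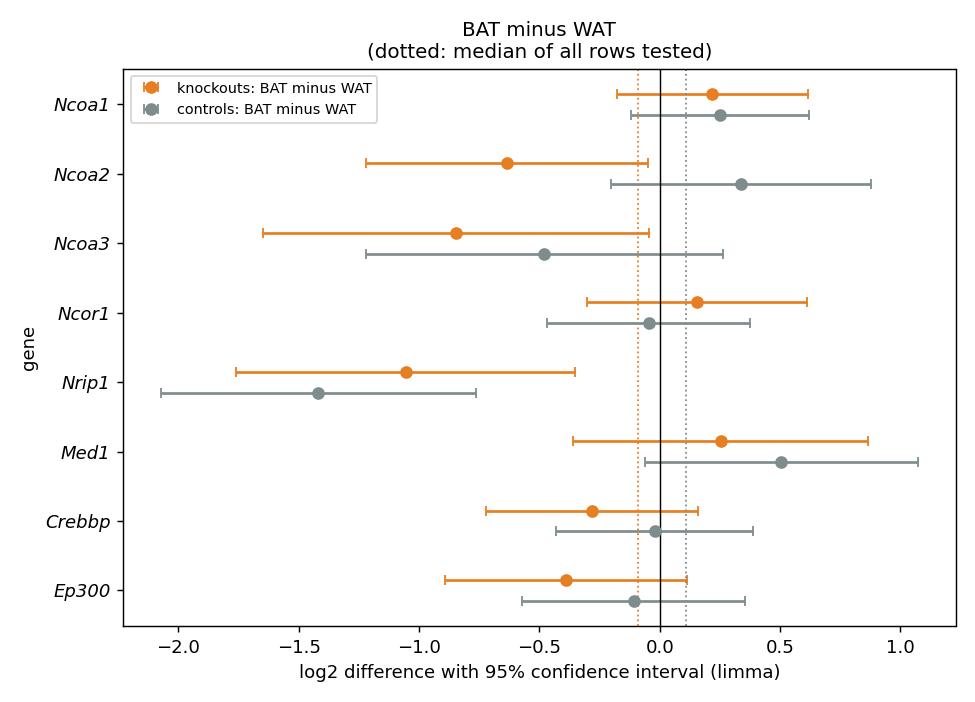
BAT minus WAT log2 difference of the 8 genes with its 95% confidence interval, in knockouts (4 BAT and 3 WAT samples) and controls (4 and 4). Dotted lines mark the median of all rows, -0.09 in knockouts and 0.11 in controls. The Nrip1 intervals (-1.76 to -0.35 and -2.07 to -0.77) lie farthest to the left.

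Few rows of any kind were called between genotypes, 0.0597% in WAT and 0.0159% in BAT. The counts for other genes of the same machinery are to be read against those shares. In WAT knockouts against controls, 0 of 21 other coactivators, 0 of 19 other corepressors, 0 of 31 other Mediator subunits and 0 of 40 nuclear receptors tested passed. Their median differences were 0.33, 0.28, 0.21 and -0.19, against 0.24 for all rows. The smallest adjusted p in each list belonged to Kmt2c, a histone methyltransferase (0.78 ± 0.26, adjusted p = 0.229), Gps2, a subunit of the Ncor1 complex (0.48 ± 0.15, adjusted p = 0.218), Med11 (0.52 ± 0.19, adjusted p = 0.242) and Nr3c1 itself. In BAT the same lists gave 0, 0, 0 and 1, with medians of 0.12, 0.18, -0.04 and 0.05 against 0.10 for all rows. The receptor gene that passed was Nr4a2 (1.63 ± 0.23, adjusted p = 0.0487). That call was lost, as no row at all passed, with the slide or the replicate number as a block, with normexp background correction, with no filter on dim probes, and on leaving out, 1 at a time, BAT knockout 1, 2 or 3, BAT control 1, 3 or 4, or WAT control 2 or 4. The same held without BAT knockouts 1 and 2 together and without WAT controls 1 and 4 together. In the other alternatives, where some rows passed, Nr4a2 was not followed. Cdk8, the kinase of the Mediator complex (-0.86 ± 0.20, adjusted p = 0.174), Hdac2, a histone deacetylase (-0.80 ± 0.22, adjusted p = 0.194), and Ncoa4 (-0.55 ± 0.23, adjusted p = 0.329) came nearest in the other lists.

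Between depots, 30.6% of all rows were called in knockouts (16.7% higher in BAT, 13.9% lower) and 33.4% in controls (19.1% higher, 14.3% lower), and the counts of these lists are to be read against those shares. In knockouts 4 of 21 other coactivators were higher in BAT and 2 lower, and in controls 7 were higher and 1 lower. Ppargc1b, a coactivator of mitochondrial genes, was higher by 4.13 ± 0.18 in BAT of knockouts (adjusted p = 1.05e-08) and by 4.15 ± 0.16 in BAT of controls (adjusted p = 4.4e-09). Ppargc1a, its relative that drives thermogenic genes and that Nrip1 opposes in mouse fat cells, was higher by 4.85 ± 0.53 in knockouts (adjusted p = 2.61e-05) and by 3.64 ± 0.49 in controls (adjusted p = 8.6e-05). Prdm16, which specifies brown fat cells, was higher by 2.78 ± 0.28 in knockouts and 2.37 ± 0.26 in controls. Of 19 other corepressors, 4 were higher in BAT and 1 lower in each genotype. Hdac3, the deacetylase of the Ncor1 complex, was higher by 0.72 ± 0.17 in knockouts (adjusted p = 0.00538) and 0.74 ± 0.15 in controls (adjusted p = 0.00218). Gps2 was lower in BAT of knockouts (-0.56 ± 0.15, adjusted p = 0.0125). Ctbp2, a corepressor that binds Nrip1, was higher in BAT of knockouts (1.14 ± 0.28, adjusted p = 0.00744).

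Of 31 other Mediator subunits, 5 were higher in BAT and 1 lower in knockouts, and 11 were higher and 0 lower in controls. Cdk8 was higher by 1.18 ± 0.20 in BAT of controls (adjusted p = 0.000432), and Med9 by 1.20 ± 0.25 in BAT of knockouts (adjusted p = 0.00316). Of 40 nuclear receptors, 16 were higher and 3 lower in BAT of knockouts, and 15 higher and 4 lower in BAT of controls. Esrra, an orphan receptor that works with the Ppargc1 coactivators, was higher by 2.56 ± 0.20 in knockouts (adjusted p = 2.4e-06) and 2.22 ± 0.19 in controls (adjusted p = 1.88e-06). Ppara, the receptor for fatty acids, was higher by 6.44 ± 0.56 in BAT of knockouts (limma adjusted p = 4.6e-06). Its level was 4.51 ± 0.25 in BAT knockouts (SD, n = 4) and a scattered -1.92 ± 1.84 in WAT knockouts (SD, n = 3). Cdk8, Med9, Gps2, Ctbp2 and Ppara are given between depots for 1 genotype, as up to 3 genes per list and comparison were named. Their depot differences in the other genotype are not given here. In the genotype by depot interaction 0 members of these 4 lists passed, against 0.00398% of all rows.

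For each member, the 2 most alike genes among 16652 named genes were taken by the root mean square of the log2 differences between profiles centred on their means, over the 15 samples. For Nrip1 they were Lysmd2 and Igsf8 (0.255 and 0.258), for Ncor1 Ppp2r3d and Pde2a (0.128 and 0.144) and for Ncoa2 Wdr75 and Parp2 (0.141 and 0.141). For Ncoa3 they were Msn and Rpl13a (0.146 and 0.148) and for Ep300 Inip and Fgd6 (0.127 and 0.142). For Med1 the nearest was Rce1 (0.121). For Ncoa1 they were Ccdc59 and Zswim8 (both 0.0920) and for Crebbp Adam17 and Zfp451 (0.0910 and 0.110). The median distance of all genes from a member was between 0.571 for Ncoa1 and 0.941 for Nrip1. The distance depends on how much a gene varies, and that of Nrip1 to its nearest gene was the largest of the 8.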

How the data were processed

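Total RNA (500 ng) of 16 adipose samples was labelled with Cy3 and hybridised to one-colour Agilent arrays, per the labels' protocols. Images were extracted with Agilent Feature Extraction 12.0.0.7, per the file headers. The processed signal, an intensity in the deposited scanner files, had its background removed and was detrended on each array, without scaling across arrays. Median spot and background signals were deposited as unprocessed intensity. The deposited flags are of an other kind, 0 or 1 per spot. The deposited values per probe equalled the mean processed intensity on all 16 arrays (relative tolerance 1e-04).

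Control spots and spots flagged as outliers were left out. The 75th percentile of an array was subtracted on the log2 scale. Probes had to be well above background on 3 or more of 4 arrays in any group. RefSeq accessions named 28223 of 41174 probes, and a gene is represented by its probe with the highest mean level. WAT knockouts 1 and 2 were averaged. The group means of 15 samples were compared with limma 3.58.1 (11 residual and 2.65 prior degrees of freedom) in R 4.3.3, two-sided, with Benjamini-Hochberg adjustment. Each slide held 1 array of each group, always at the same position, so position and group cannot be told apart. The members, gene lists and alternatives were chosen with earlier results of these data known. The named genes were the members, Nr3c1, up to 3 genes of each list per comparison by smallest adjusted p, and the 2 nearest profiles; some were left out of the text, and 1 of the nearest profiles is not reported here. The fit was also run on simulated data with independent noise and 1 spread per gene for all groups. The groups here differed in spread, which that simulation does not cover.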

Additional observations from a re-analysis of the deposited data

Results flagged for a closer look

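Of 24 sets of 4 samples (8 genes in 3 groups), 2 had a sample far from the others by the 95% critical value of a gap test, which chance alone also passes in some groups. Nrip1 in WAT control 2 was 2.54, against 1.74 in the next sample, with the gap making up 0.916 of the range of the group. Ncoa1 in WAT control 2 was 2.56, against 2.45 in the next sample (0.853 of a range that is itself small). Without WAT control 2 the BAT minus WAT difference of Nrip1 in controls was -1.21 (limma adjusted p = 0.00891).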

How the results depend on the processing

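The number of members called between depots in knockouts was 1, and it was 0 with the array median for scaling, 0 in a fit of the 2 groups alone, 0 without BAT knockouts 1 and 2, 3 with the mean of all probes of a gene (7470 of 25107 rows called) and 3 with all 16 arrays as separate samples (9732 rows). In controls it was 1, and 3 in a fit of the 2 groups alone (Ncoa2, Nrip1 and Med1, 10774 rows). Leaving out 1 sample at a time gave 0 to 3 called members between genotypes in WAT, 0 to 1 in the interaction, 1 in every case between depots in controls and 0 to 4 in knockouts. The highest counts came without WAT knockout 4, where 9235, 4055 and 11456 of 25107 rows were called in WAT, in the interaction and between depots in knockouts. Of 1192 alternative values (40 differences, up to 30 alternatives), 57 changed sign, none with an adjusted p under 0.304, while 15 gained and 6 lost the threshold. With normexp background correction the sign changed for Ncoa1 (-0.037) in knockout minus control in BAT, Ep300 (0.080) in the interaction and Crebbp (0.026) in BAT minus WAT in controls. With quantile normalization the sign changed for Ep300 (-0.050) in knockout minus control in BAT, Ncoa1 (-0.082) and Ep300 (0.034) in BAT minus WAT in controls and Ncoa1 (-0.097) and Ncor1 (-0.27) in BAT minus WAT in knockouts. With the array median for scaling the sign changed for Ncoa1 (-0.028) and Ep300 (-0.12) in knockout minus control in BAT and Ncor1 (0.11), Crebbp (0.13) and Ep300 (0.043) in BAT minus WAT in controls. With the mean of all probes of a gene the sign changed for Med1 (-0.029) and Ep300 (-0.23) in knockout minus control in BAT, Ncor1 (-0.052) in the interaction, Crebbp (0.22) in BAT minus WAT in controls and Ncor1 (-0.13) in BAT minus WAT in knockouts. Without BAT knockouts 1 and 2 the sign changed for Ncoa1 (-0.17), Med1 (-0.17) and Ep300 (-0.029) in knockout minus control in BAT, Ncor1 (-0.14) in the interaction and Ncoa1 (-0.062), Ncor1 (-0.19) and Med1 (-0.17) in BAT minus WAT in knockouts. Without WAT knockouts 1-2 and 3 the sign changed for Ncoa2 (-0.090), Ncoa3 (-0.57), Nrip1 (0.68), Med1 (-0.15), Crebbp (-0.37) and Ep300 (-0.22) in knockout minus control in WAT, Ncoa3 (0.75), Ncor1 (-0.026), Nrip1 (-0.44), Med1 (0.41), Crebbp (0.26) and Ep300 (0.25) in the interaction and Ncoa3 (0.27), Ncor1 (-0.072), Crebbp (0.24) and Ep300 (0.14) in BAT minus WAT in knockouts. Leaving out 1 sample at a time gave ranges that crossed 0 for Nrip1 (-0.53 to 0.078) and Crebbp (-0.018 to 0.41) in knockout minus control in WAT, Ncoa1 (-0.0014 to 0.21) and Ep300 (-0.075 to 0.088) in knockout minus control in BAT, Ncoa1 (-0.15 to 0.065) in the interaction, Ncor1 (-0.12 to 0.010) and Crebbp (-0.093 to 0.052) in BAT minus WAT in controls and Med1 (-0.074 to 0.47) in BAT minus WAT in knockouts. With the replicate number as a block, Nrip1 differed between depots by -1.08 in knockouts (limma adjusted p = 0.0376) and -1.42 in controls (limma adjusted p = 0.00644), and no call of a member changed. Deviations of same-numbered arrays from their group means correlated at -0.47 to 0.18. For BAT and WAT controls 1 to 4 the correlations were 0.18, 0.10, 0.06 and 0.05. Differently numbered arrays were not compared, so these values cannot decide on pairing. The numbers were not taken as pairs. The cause of these changes was not tested. With 3 or 4 samples in a group, the number of arrays limits the precision.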
